A study of Mus musculus with 6 samples.

Results

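The genes described here encode the CBL ubiquitin ligases and the machinery that takes ubiquitinated receptors from the plasma membrane to the lysosome. A list of 41 mouse genes was matched by symbol to the identifiers of the gene table. Of these, 40 had a row among the 37620 genes of the table, and all 40 were among the 16023 genes tested. *Vps28*, a subunit of ESCRT-I, was not analysed here. PolyA RNA was sequenced from 3 libraries of wild-type E14 mouse ESCs and 3 libraries of E14 ESCs carrying the *Ube2d3*-S138A mutation. Both genotypes are of the 129/Ola strain and were grown in 15% serum. The study kept its ESCs on gelatin with LIF. In the mutant, CRISPR/Cas9 editing replaced a serine near the end of the ubiquitin-conjugating enzyme UBE2D3 with alanine, and edited clones were picked. The functional work of the study compared wild-type ESCs with a single S138A clone. The labels name no clone for the sequenced libraries, and effects of the mutation and of a clone cannot be told apart here. They also do not say whether the 3 libraries of a genotype came from separate cultures, so p-values measure the spread between these libraries, which may be technical.

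An activated receptor tyrosine kinase binds CBL, whose RING domain brings in a ubiquitin-conjugating enzyme of the UBE2D family so that ubiquitin is placed on the receptor. Clathrin adaptors that recognise the ubiquitin or the receptor gather it into a coated pit, and dynamin cuts the pit from the membrane. On the early endosome the ESCRT complexes act in order, ESCRT-0 holding the ubiquitinated cargo and ESCRT-III closing the vesicle that buds into the endosome, after which the VPS4 ATPase takes ESCRT-III apart. Receptors that lose their ubiquitin to a deubiquitinase can return to the cell surface through recycling endosomes.

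The RING is the part of the CBL proteins that UBE2D enzymes contact, so its coding sequence is shown for the 3 CBL genes that share it. The stretch runs 5′ to 3′ on the coding strand from the first to the last zinc-binding residue, 117 bases for 39 residues, and the capitals mark the codons of the 8 residues that hold the 2 zinc ions.
Cbl: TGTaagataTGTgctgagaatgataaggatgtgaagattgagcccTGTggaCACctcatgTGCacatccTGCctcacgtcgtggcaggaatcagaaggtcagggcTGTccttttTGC
Cblb: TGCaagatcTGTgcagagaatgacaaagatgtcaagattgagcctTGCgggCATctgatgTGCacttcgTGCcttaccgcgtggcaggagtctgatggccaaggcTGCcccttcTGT
Cblc: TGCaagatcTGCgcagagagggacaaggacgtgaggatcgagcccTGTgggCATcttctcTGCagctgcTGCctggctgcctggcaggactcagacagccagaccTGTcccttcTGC

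Each stretch is coding exon sequence and spans 2 exons in GRCm38, the build of the annotation used for positions and lengths. The *Cbl* stretch lies on the minus strand at chr9:44164126-44164212 and chr9:44163513-44163542, that of *Cblb* on the plus strand at chr16:52142812-52142898 and chr16:52152511-52152540, and that of *Cblc* on the minus strand at chr7:19786183-19786269 and chr7:19785370-19785399. CBL and CBLB shared 37 of the 39 residues (94.9%), whereas CBLC shared 28 with CBL (71.8%) and 30 with CBLB (76.9%). Between *Cbl* and *Cblb* 92 of the 117 bases were the same (78.6%). The forward primer used in the study for qRT-PCR of CBL, cgtggcaggaatcagaaggt, matched bases 80 to 99 of the *Cbl* stretch with 0 mismatches. At the same bases it had 4 mismatches with *Cblb* and 5 with *Cblc*. Across whole transcripts the longest run shared by *Cbl* and *Cblb* was 20 bases, and 14 bases for *Cbl* and *Cblc*.

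Total counts were 33227593 to 37169770 per library. Wild-type 3 and the S138A library called C here stood apart from the other 4 on the first principal component, which held 57.2% of the variance. The second component held 25.6% and separated the genotypes, at 23.2 to 28.8 in wild-type and -29.6 to -21.3 in S138A libraries. *Ube2d3*, the edited gene, had 473, 459 and 304 TMM-normalised CPM (TMM CPM) in wild-type 1, 2 and 3, and 491, 429 and 265 in S138A A, B and C. A single-codon change does not show in a gene count, so this level does not check the genotype. All 8 ESC markers were present, their summed level being 6510.6 to 7306.4 TMM CPM in wild-type and 6637.5 to 7375.5 in S138A ESCs. Of these, *Zfp42* was lower in the mutant without overlap (899 to 943 against 612 to 875 TMM CPM) and *Klf4* higher with overlap (192 to 229 against 216 to 344). Their adjusted p was 0.0321 and 0.0251 from edgeR with the replicate block described below. Without the block neither passed, with an adjusted p of 0.337 and 0.371 from edgeR and 0.293 and 0.363 from DESeq2. The 7 primitive endoderm markers together reached 17.8 to 21.7 and 20.9 to 27.8 TMM CPM.

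The levels of the pathway in wild-type ESCs were compared per kilobase of exon. Over the 40 genes they ran from 0.211 to 81.8 TMM CPM per kilobase, with a median of 11.4. *Rab7*, the RAB of late endosomes, had the highest level, at 81.8 ± 7.47 (SD, n = 3). It was followed by the clathrin heavy chain gene *Cltc* at 78.0 ± 2.73, the ESCRT-III subunit gene *Chmp2a* at 67.8 ± 16.5 and *Grb2*, the adaptor that links receptors to CBL and SOS, at 46.4 ± 3.63 TMM CPM per kilobase (SD, n = 3). The levels of the first 3 lay within their spread of each other. The CBL genes were at the other end of the range. *Cbl* had 3.30 ± 0.465, *Cblb* 2.15 ± 0.190 and *Cblc* 0.983 ± 0.364 TMM CPM per kilobase (SD, n = 3). *Cbll1*, a RING ligase gene with a related name whose product is better known as HAKAI, was higher, at 13.3 ± 0.390. The lowest levels were those of *Stambp*, a deubiquitinase, at 0.357 ± 0.0287, of *Sh3kbp1*, the CBL-binding adaptor CIN85, at 0.322 ± 0.0180, and of *Vps25*, an ESCRT-II subunit, at 0.211 ± 0.0493 TMM CPM per kilobase (SD, n = 3). The exons of the annotation include untranslated ends that these cells may not use, so a level per kilobase of a gene with long annotated ends is a low estimate. With the longest transcript as the length, the median over the 40 genes was 13.9 TMM CPM per kilobase and *Cltc* stood at 102, above *Rab7* at 98.9.

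**Figure D1:**
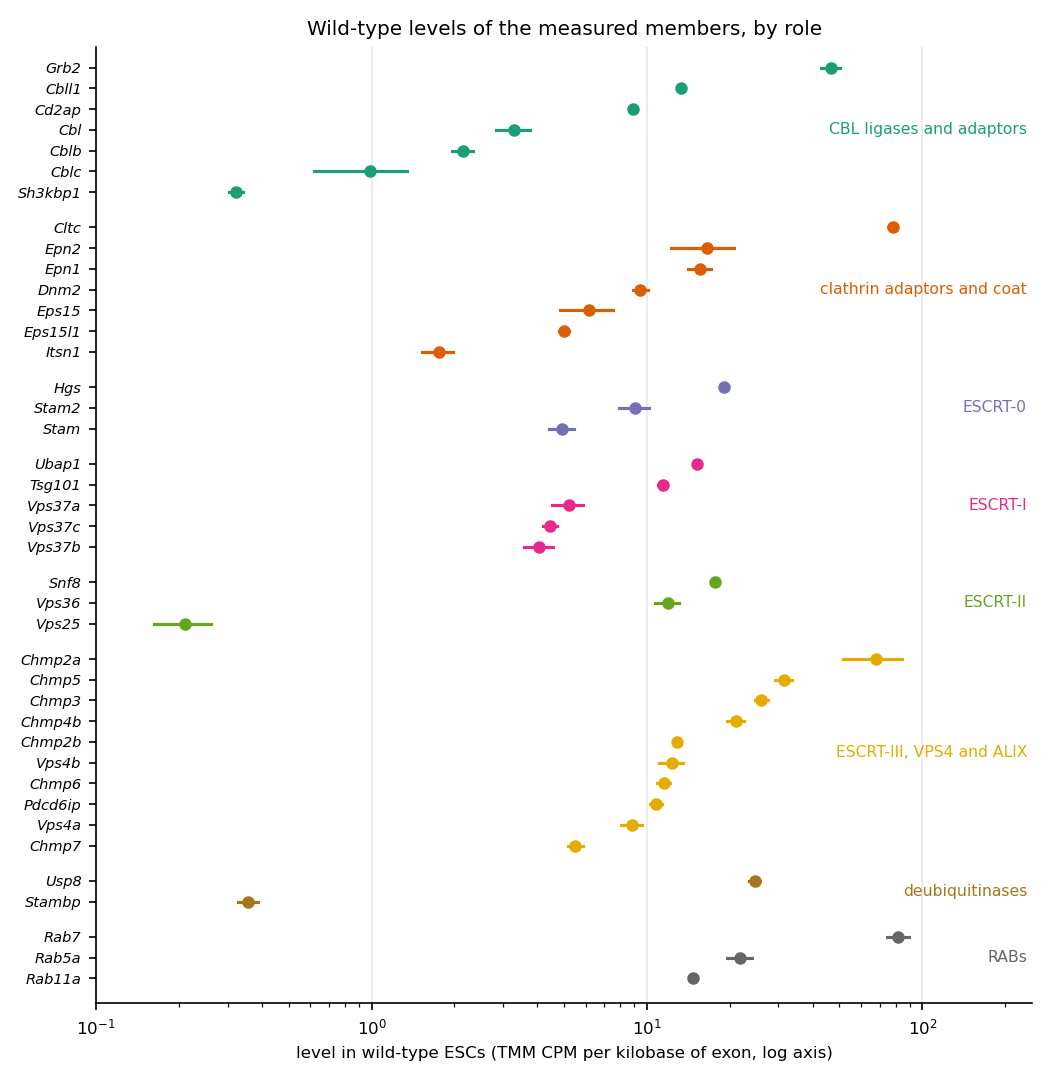
Level of each of the 40 genes in wild-type ESCs, in TMM CPM per kilobase of exon on a log axis, grouped by role, with points for the mean and lines for the SD over 3 libraries. Levels run from 0.211 for *Vps25* to 81.8 for *Rab7*, and the 3 genes *Cbl*, *Cblb* and *Cblc* lie below the median of 11.4.

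Whether the S138A mutation changed the transcript levels of the pathway was tested with edgeR's quasi-likelihood test across all 16023 genes. It called 0 of the 40 genes at an adjusted p under 0.05, as it called 0 of all genes (0.0%). At an unadjusted p under 0.05 there were 6 of 40, against 14.2% of all genes, of which 3 were higher (7.62% of all genes) and 3 lower (6.55% of all genes) in the mutant. DESeq2 called 0 of 40, against 4.13% of all genes. The median log2 fold change (mutant minus wild type) of the 40 genes was 0.017, the same as over all genes, and single values ran from -0.35 to 0.69. Their median absolute log2 fold change was 0.134, against 0.216 over all genes, a comparison that was not matched for expression level. In 10 of the 40 genes (25%) the 3 mutant libraries lay wholly above or below the 3 wild-type libraries, against 22.2% of all genes. Of these, 4 were higher (11.3% of all genes) and 6 lower (10.9% of all genes). With 3 libraries against 3, the smallest p of the exact two-sided permutation test is 0.1, so it cannot pass 0.05 for a single gene.

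Wild-type 3 and S138A C, whose column names end in the same digit, deviated together from their genotypes. Whether the other libraries pair by digit was not tested apart from this shared difference. A fit with the final digit as a replicate block called 8 of the 40 genes (20.0%), against 19.8% of all genes. *Epn1*, *Dnm2* and *Vps37b* were higher in the mutant (10.7% of all genes were called higher), and *Cd2ap*, *Epn2*, *Cltc*, *Chmp2a* and *Rab5a* were lower (9.13% of all genes were called lower). The share among the 40 genes was thus close to that of the whole table. Leaving out wild-type 3 and S138A C, edgeR also called 8 of 40 (29.6% of all genes). *Sh3kbp1*, *Epn1*, *Dnm2* and *Chmp7* were then the higher ones (15.3% of all genes) and *Cd2ap*, *Epn2*, *Cltc* and *Chmp2a* the lower ones (14.3% of all genes). In bulk RNA, a change in the share of a kind of cell and a change in RNA per cell cannot be told apart.

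**Figure D2:**
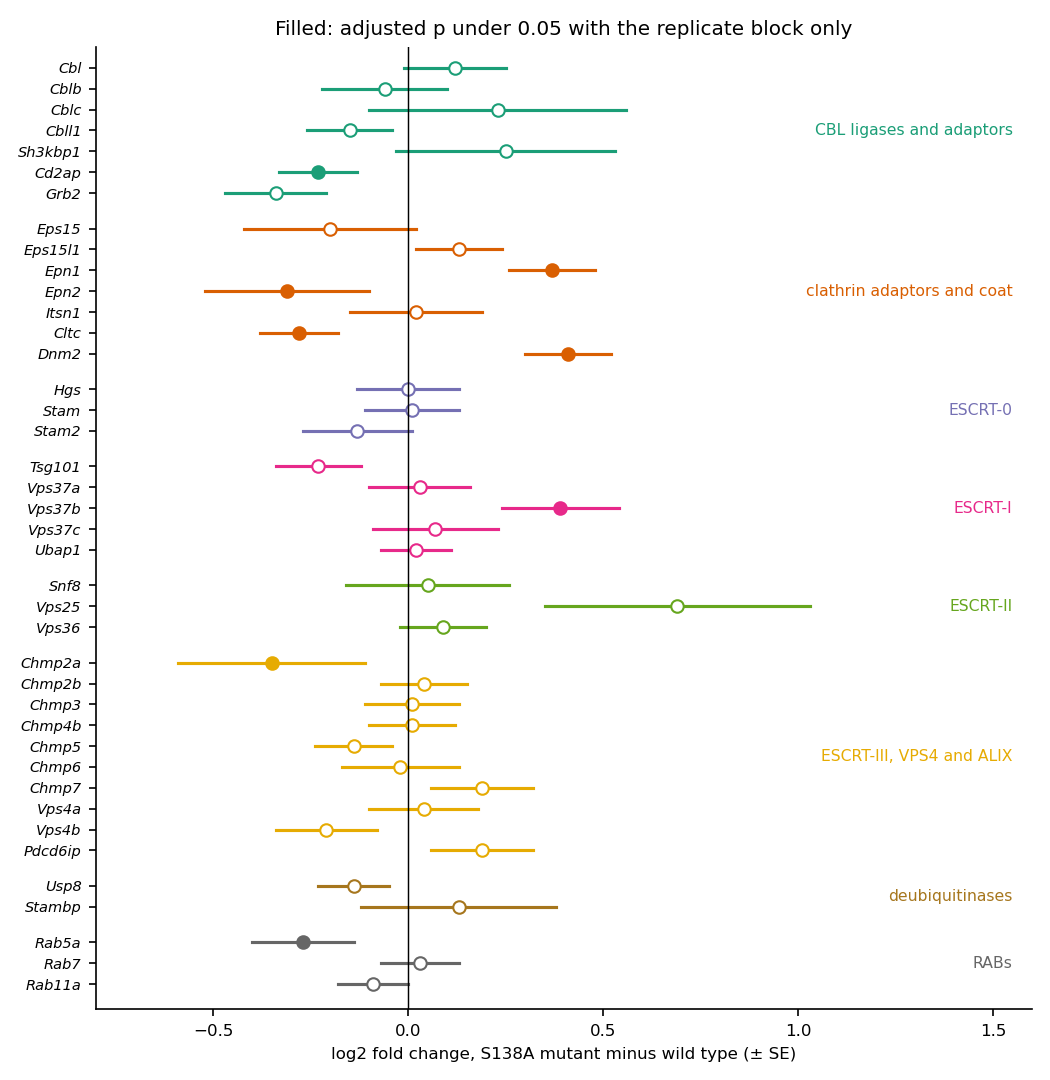
Log2 fold change (mutant minus wild type) from edgeR for each of the 40 genes, grouped by role, with lines for the standard error. Filled points mark the 8 genes with an adjusted p under 0.05 when the replicate digit is a block, and open points the other 32, and 0 of the 40 genes passed without the block.

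Of the CBL ligases, *Cbl* had 37.1, 47.4 and 37.8 TMM CPM in wild-type 1, 2 and 3 and 46.8, 45.7 and 40.6 in S138A A, B and C. Wild-type 2 was the highest library of all, and the genotypes overlapped. Its log2 fold change was 0.12 (SE 0.13, adjusted p = 0.719 from edgeR). *Cblb*, the closest relative of *Cbl*, had 20.6, 22.5 and 24.6 TMM CPM in wild-type and 19.1, 19.9 and 25.9 in mutant libraries, with wild-type 3 and S138A C the highest of each genotype. The log2 fold change of *Cblb* was -0.06 (SE 0.16, adjusted p = 0.895 from edgeR). *Cblc*, known from epithelial tissues, had 1.94, 1.99 and 3.57 TMM CPM in wild-type and 2.52, 2.53 and 3.75 in mutant libraries. Again wild-type 3 and S138A C were the high ones, and the genotypes overlapped at a log2 fold change of 0.23 (SE 0.33, adjusted p = 0.796 from edgeR), which was 0.57 without wild-type 3 and 0.01 without S138A C. *Cbll1* had 53.5, 54.9 and 51.7 TMM CPM in wild-type and 52, 49.4 and 42.7 in mutant libraries, a log2 fold change of -0.15 (SE 0.11, adjusted p = 0.567 from edgeR). S138A C was the lowest library for *Cbll1*.

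**Figure D3:**
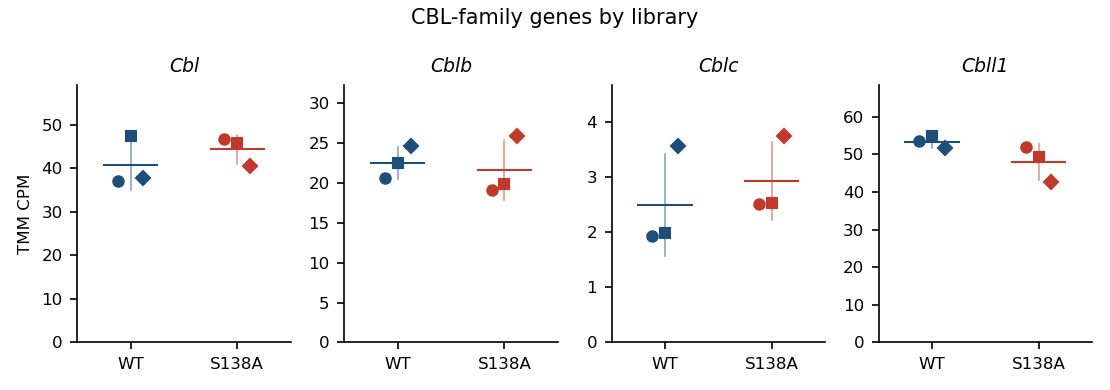
TMM CPM of *Cbl*, *Cblb*, *Cblc* and *Cbll1* in each library, each gene on its own axis from 0, with circles for wild-type 1 and S138A A, squares for wild-type 2 and S138A B, diamonds for wild-type 3 and S138A C, horizontal lines for means and vertical lines for the SD (n = 3). The genotypes overlap for all 4 genes, and the diamonds are highest for *Cblb* and *Cblc*.

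Among the adaptors that CBL works with, *Cd2ap*, whose product binds CBL and actin regulators, had 138.2, 138.6 and 146.1 TMM CPM in wild-type and 120.2, 110.4 and 128.8 in mutant libraries. All mutant libraries lay below all wild-type libraries. For *Cd2ap* the log2 fold change was -0.23 (SE 0.10, adjusted p = 0.336 from edgeR, 0.0473 with the block). *Grb2* had 137.7, 123.8 and 144.6 TMM CPM in wild-type and 110.2, 119.4 and 91.9 in mutant libraries. The groups did not overlap, S138A C was the lowest, and the log2 fold change was -0.34 (SE 0.13, adjusted p = 0.310 from edgeR, 0.0679 with the block). *Sh3kbp1* had 2.48 to 4.78 TMM CPM in the mutant and 3.09 to 3.45 in wild type. Its S138A C library was the lowest of the 6 and its S138A A and B libraries the highest. The adjusted p of *Sh3kbp1* was 0.735 in 6 libraries and 0.0411 in the 4 without wild-type 3 and S138A C, where the log2 fold change was 0.45.

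Of the 7 genes of the clathrin group 4 were called with the block, beside 19.8% of all genes, and the difference from the other groups was not tested. *Epn1* (chr7:5080235-5098178) encodes epsin 1, an adaptor that binds ubiquitin, clathrin and the membrane. It had 39, 45.7 and 46.9 TMM CPM in wild-type and 53.8, 60.5 and 56.1 in mutant libraries, and the groups did not overlap. This was a log2 fold change of 0.37 (SE 0.11, adjusted p = 0.238 from edgeR, 0.0181 with the block), a 1.29-fold higher level. *Epn2* (chr11:61517249-61579687), the gene of epsin 2, went the other way. It had 69.4, 77.9 and 112 TMM CPM in wild-type and 61.2, 63.8 and 84.6 in mutant libraries, so S138A C lay above wild-type 1 and 2 and the groups overlapped. Its log2 fold change was -0.31 (SE 0.21, adjusted p = 0.563 from edgeR, 0.0329 with the block), and the differences within digits 1, 2 and 3 were -0.18, -0.29 and -0.40. Without wild-type 3 the log2 fold change of *Epn2* was -0.08.

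*Dnm2* (chr9:21424908-21507759) encodes dynamin 2, the GTPase that pinches coated vesicles from the membrane, and it had the smallest p of the 40 genes in the fit without the block. Its levels were 50.2, 47.4 and 53.8 TMM CPM in wild-type and 60.3, 69.3 and 71.7 in mutant libraries, with no overlap. For *Dnm2* the log2 fold change was 0.41 (SE 0.11, adjusted p = 0.210 from edgeR, 0.0166 with the block), a 1.33-fold higher level. *Cltc* (chr11:86694351-86757565), the clathrin heavy chain gene, had 689, 647 and 651 TMM CPM in wild-type and 582, 564 and 494 in mutant libraries. Every mutant library was below every wild-type library, and S138A C was the lowest. For *Cltc* this gave a log2 fold change of -0.28 (SE 0.10, adjusted p = 0.296 from edgeR, 0.0283 with the block). The other 3 genes of the group, *Eps15*, *Eps15l1* and *Itsn1*, which encode scaffolds of the early coated pit, overlapped between genotypes, with log2 fold changes of -0.20, 0.13 and 0.02.

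**Figure D4:**
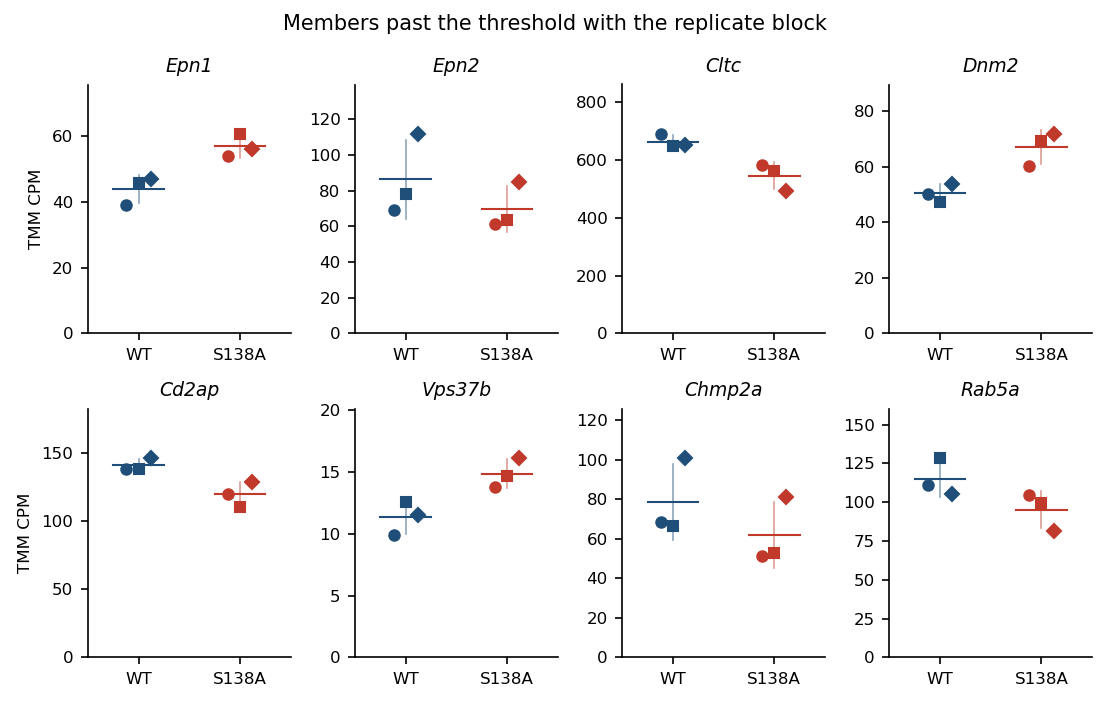
TMM CPM by library of the 8 genes called with the replicate block, each on its own axis from 0, with circles, squares and diamonds for the libraries whose column names end in 1, 2 and 3 (wild-type 1, 2, 3 and S138A A, B, C), horizontal lines for means and vertical lines for the SD (n = 3). *Epn2* and *Chmp2a* overlap between genotypes because the diamonds of both genotypes are high, whereas the other 6 genes do not overlap.

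The 3 genes of ESCRT-0 had a median absolute log2 fold change of 0.00914 in 6 libraries and 0.134 in the 4 without wild-type 3 and S138A C. *Hgs*, the gene of its ubiquitin-binding HRS subunit, differed between genotypes by a log2 fold change that rounded to 0 (SE 0.13, adjusted p = 0.999 from edgeR), though its mutant libraries spread from 46.2 to 62.5 TMM CPM around wild-type values of 55.5 to 57.4. *Stam*, one of the partners of HRS, had 39.9, 37.7 and 46.1 TMM CPM in wild-type and 43.3, 38.8 and 42.4 in mutant libraries, a log2 fold change of 0.01 (SE 0.12, adjusted p = 0.983 from edgeR). Its relative *Stam2* had 57.8, 58.9 and 46.7 TMM CPM in wild-type and 55.5, 49.9 and 43.8 in mutant libraries, a log2 fold change of -0.13 (SE 0.14, adjusted p = 0.715 from edgeR). The genotypes overlapped for all 3 genes.

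In ESCRT-I, *Tsg101*, whose product binds the ubiquitinated cargo handed on by ESCRT-0, had 31.8, 31.5 and 29.8 TMM CPM in wild-type and 25, 28.7 and 25.5 in mutant libraries. The groups did not overlap, with a log2 fold change of -0.23 (SE 0.11, adjusted p = 0.396 from edgeR, 0.0841 with the block). *Vps37b* (chr5:124004641-124032270), one of 3 measured genes for the interchangeable VPS37 subunit, had 9.93, 12.6 and 11.5 TMM CPM in wild-type and 13.8, 14.7 and 16.1 in mutant libraries. All mutant libraries were above all wild-type libraries. Its log2 fold change was 0.39 (SE 0.15, adjusted p = 0.324 from edgeR, 0.0389 with the block). Of its exon bases, 32.9% overlap *Hip1r* on the opposite strand. The library kit keeps the strand, but whether the counting used it is not stated. *Hip1r* itself gave an adjusted p of 0.175 with the block (log2 fold change 0.19). *Vps37a*, *Vps37c* and *Ubap1* had log2 fold changes of 0.03, 0.07 and 0.02.

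The ESCRT-II gene *Vps36*, which encodes the ubiquitin-binding subunit, had 48.7, 43.9 and 40.0 TMM CPM in wild-type and 48, 47.4 and 46.0 in mutant libraries, a log2 fold change of 0.09 (SE 0.11, adjusted p = 0.742 from edgeR). *Snf8* ranged from 33.6 to 60.0 TMM CPM in the mutant, with S138A C the lowest, and from 46.3 to 47.8 in wild type. *Vps25* rested on few reads, 13, 8 and 15 counts in wild-type and 24, 17 and 20 in mutant libraries, which corresponds to 0.393, 0.253 and 0.393 against 0.695, 0.462 and 0.539 TMM CPM. The groups did not overlap. The log2 fold change of *Vps25* was 0.69 (SE 0.34, adjusted p = 0.422 from edgeR), the highest value among the 40 genes and the one with the largest standard error. Its exons overlap those of *Ramp2* on the same strand over 67.2% of their bases, and reads from the shared bases cannot be assigned to either gene, so the low level of *Vps25* is uncertain.

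Of the 10 genes of ESCRT-III, VPS4 and ALIX, *Chmp2a* was called with the block, beside 19.8% of all genes. *Chmp2a* (chr7:13032010-13034807), a late ESCRT-III subunit that recruits VPS4, had 68.8, 66.6 and 101 TMM CPM in wild-type and 51.4, 52.9 and 81.3 in mutant libraries. The libraries of digit 3 were the high ones in both genotypes, so the genotypes overlapped, and the differences within digits 1, 2 and 3 were -0.42, -0.33 and -0.31 on the log2 scale. The log2 fold change was -0.35 (SE 0.24, adjusted p = 0.555 from edgeR, 0.0163 with the block), and it was -0.13 without wild-type 3 and -0.60 without S138A C. *Vps4b*, one of the ATPase genes, had 118, 112 and 97.5 TMM CPM in wild-type and 104, 99.5 and 80.8 in mutant libraries, a log2 fold change of -0.21 (SE 0.13, adjusted p = 0.530 from edgeR). *Chmp7*, which also acts at the nuclear envelope, had 36.1, 35.8 and 32.1 against 40.6, 44.3 and 34.1 TMM CPM, a log2 fold change of 0.19 (SE 0.13, adjusted p = 0.547 from edgeR, 0.0404 in the 4 libraries without wild-type 3 and S138A C). Both genes overlapped between genotypes. The remaining members *Chmp2b*, *Chmp3*, *Chmp4b*, *Chmp5*, *Chmp6*, *Vps4a* and *Pdcd6ip*, the gene of ALIX, had log2 fold changes from -0.14 to 0.19.

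*Usp8*, the deubiquitinase that acts on receptors and on ESCRT-0, had 107, 104 and 98.2 TMM CPM in wild-type and 97.6, 90.5 and 92.2 in mutant libraries. The groups were separated by 98.2 and 97.6, and the log2 fold change was -0.14 (SE 0.09, adjusted p = 0.520 from edgeR). *Stambp*, the gene of the deubiquitinase AMSH, had 3.66, 4.05 and 3.46 TMM CPM in wild-type and 3.48, 3.32 and 5.42 in mutant libraries. S138A C alone was high, and the log2 fold change was 0.13 (SE 0.25, adjusted p = 0.855 from edgeR). Without S138A C it was -0.14.

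Of the RABs, *Rab5a* (chr17:53479234-53507680), which marks early endosomes, had 111, 128 and 106 TMM CPM in wild-type and 105, 99.2 and 81.7 in mutant libraries. The groups did not overlap, though wild-type 3 and S138A A differed by less than the spread of either genotype. The log2 fold change was -0.27 (SE 0.13, adjusted p = 0.407 from edgeR, 0.0492 with the block). *Rab11a*, the RAB of recycling endosomes, had 44.8, 44.5 and 43.0 TMM CPM in wild-type and 42.4, 38.9 and 43.1 in mutant libraries, a log2 fold change of -0.09 (SE 0.09, adjusted p = 0.720 from edgeR). *Rab7* had 191 to 228 TMM CPM in wild-type and 206 to 227 in mutant libraries, and the genotypes overlapped.

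Ratios between related genes do not depend on how libraries are scaled, so 10 pairs of paralogs were compared as ratios of counts per kilobase of exon. In 1 of the 10 pairs the genotypes did not overlap, beside 22.2% of all single genes tested. The share over other pairs of genes was not computed. The pair was *Epn1* and *Epn2*, whose opposite log2 fold changes are given above, so it is not a separate result. The ratio of *Epn1* to *Epn2* was 1.04, 1.09 and 0.782 in wild-type 1, 2 and 3 and 1.64, 1.76 and 1.23 in S138A A, B and C, or 0.973 ± 0.167 against 1.54 ± 0.276 (SD, n = 3, p = 0.1 by the exact two-sided permutation test, the smallest it can give). The third library of each genotype was the lowest. The ratio of *Cbl* to *Cblb* was 1.54 ± 0.242 in wild-type and 1.79 ± 0.398 in mutant libraries (SD, n = 3), with overlap. *Chmp2a* exceeded *Chmp2b* by 5.29 ± 1.2 in wild-type and 4.03 ± 0.815 in mutant libraries, and *Cd2ap* exceeded *Sh3kbp1* by 27.7 ± 2.25 and 21.7 ± 9.80 (SD, n = 3). With the longest transcript as the length, the wild-type ratio of *Cd2ap* to *Sh3kbp1* was 56.7, that of *Cbl* to *Cblb* 1.06 and that of *Epn1* to *Epn2* 0.909. The ratios of *Chmp2a* to *Chmp2b* and of *Cd2ap* to *Sh3kbp1* overlapped between genotypes, and that of *Cd2ap* to *Sh3kbp1* was 33.1 in S138A C against 16.0 and 16.2 in S138A A and B.

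The difference between wild-type 3 and S138A C and the other libraries was set beside the genotype for each gene. *Cblc*, *Eps15* and *Chmp2a* were higher by over 0.5 on the log2 scale in both libraries than in the others of their genotype. These were the 3 of 40 genes (7.5%) that differed by that much in the same direction in both genotypes, against 23.4% of the 16002 tested genes with no count of 0. *Cblc* was higher by 0.86 in wild-type 3 and 0.57 in S138A C, and *Chmp2a* by 0.57 and 0.64. *Snf8* and *Sh3kbp1* were low in S138A C alone, by -0.74 and -0.88 on the log2 scale, with -0.04 and -0.10 in wild-type 3. The part of these library differences in the genotype comparison was not tested beyond the fits with the block and in 4 libraries.

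**Figure D5:**
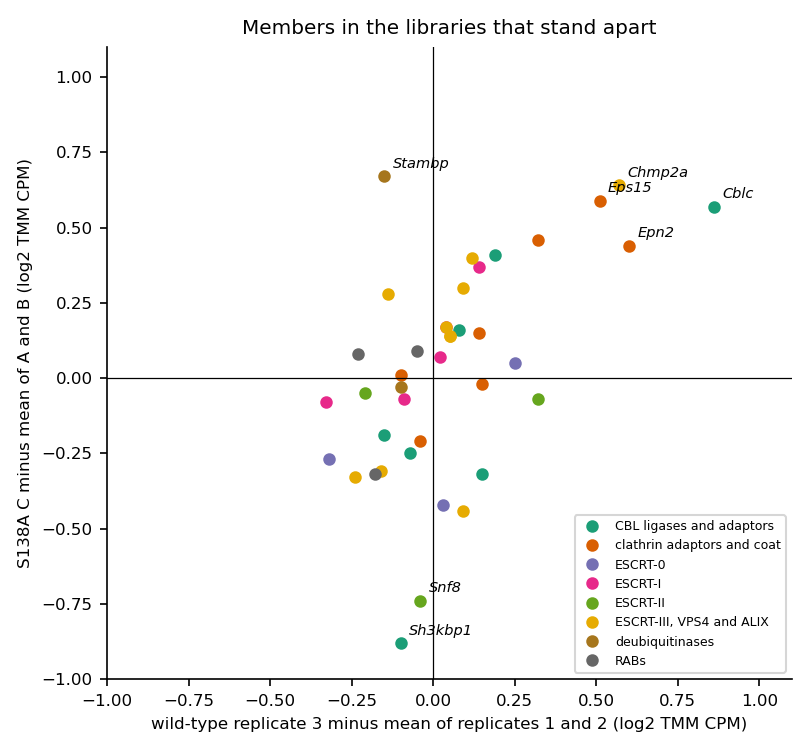
For each of the 40 genes, the log2 TMM CPM of wild-type 3 minus the mean of wild-type 1 and 2 (horizontal axis) and of S138A C minus the mean of S138A A and B (vertical axis), coloured by role, with genes beyond 0.5 on either axis named. *Cblc*, *Chmp2a*, *Eps15* and *Epn2* lie at the upper right, and *Snf8* and *Sh3kbp1* are low in S138A C only.

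Further genes of the pathway were taken from 5 lists with 112 entries, of which 108 genes were tested. The test without the block called 0 of them (0.0% of all genes), and 17 had an unadjusted p under 0.05 (14.2% of all genes). DESeq2 called 3 (4.13% of all genes). The block called 18 higher (10.7% of all genes) and 8 lower (9.13% of all genes), together 24.1% beside 19.8% of all genes. Among the 24 tested genes of the clathrin coat and AP2 list, the block called 4 higher and 2 lower (10.7% and 9.13% of all genes). *Ap2b1*, the AP2 subunit that binds clathrin, had 216 to 245 TMM CPM in wild-type and 180 to 187 in mutant libraries (log2 fold change -0.31, adjusted p = 0.0266 with the block). *Fcho1*, which starts coated pits, had 12.1 to 15.2 and 18.5 to 25.9 TMM CPM (0.62, adjusted p = 0.0132 with the block). *Epn3*, the third epsin gene, had 0.393 to 0.577 and 1.05 to 1.30 TMM CPM (1.18, adjusted p = 0.0286 with the block). Among 16 further ESCRT genes, 3 were called higher and 2 lower (10.7% and 9.13% of all genes). They included *Ptpn23*, an ALIX relative, at a log2 fold change of 0.24 (adjusted p = 0.0460 with the block), *Chmp4c* at -0.56 (adjusted p = 0.0113 with the block) and *Tom1l1* at -0.58 (adjusted p = 0.00948 with the block). Of 30 tested genes for endosomal RABs, tethers and PI3-kinase, 2 were called higher and 2 lower (10.7% and 9.13% of all genes). *Mon1b*, part of the RAB7 exchange factor, differed by 0.39 on the log2 scale (adjusted p = 0.0418 with the block). *Becn1* and *Tgfbrap1* of the same list did not pass (adjusted p = 0.0778 and 0.0800 with the block).

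Of 26 tested CBL partners and regulators, the block called 5 higher and 2 lower (10.7% and 9.13% of all genes). *Crk*, an adaptor that binds phosphorylated CBL, had 236 to 260 TMM CPM in wild-type and 192 to 197 in mutant libraries, a log2 fold change of -0.35 (SE 0.09, adjusted p = 0.199 from edgeR, 0.0161 with the block and 0.0184 from DESeq2). *Src*, the kinase that phosphorylates CBL, had 41.5 to 45.1 and 53 to 61.6 TMM CPM, a log2 fold change of 0.42 (SE 0.10, adjusted p = 0.198 from edgeR, 0.0123 with the block and 0.0348 from DESeq2). *Sorbs3* had a log2 fold change of 0.68 with the block (adjusted p = 0.0116). Of 12 receptors that CBL is known to ubiquitinate, 4 were called higher and 0 lower with the block, beside 10.7% and 9.13% of all genes. Their median log2 fold change was 0.277 without the block, beside 0.017 over all genes. The receptor list was chosen with earlier results of these data known, so these values are not an independent test. In the 4 libraries without wild-type 3 and S138A C, 5 of the 12 receptors were called higher (15.3% of all genes) and 1, *Fgfr2*, lower (14.3% of all genes). *Erbb2* had 19.2 to 21.1 TMM CPM in wild-type and 25.3 to 29.6 in mutant libraries (log2 fold change 0.43, adjusted p = 0.0161 with the block). *Fgfr1* had 68.9 to 77.1 and 97.0 to 103 TMM CPM (0.45, adjusted p = 0.187 from edgeR, 0.00938 with the block and 0.00569 from DESeq2). By qRT-PCR the study reported *Fgfr1* mRNA as unchanged across wild-type, mutant and revertant cells. The figure legend for that assay names only wild-type cells, undifferentiated and after 3 days of primitive endoderm differentiation, so the stage compared is unclear. *Csf1r*, a receptor of macrophages, was low, at 0.341 to 0.393 and 0.431 to 0.979 TMM CPM (adjusted p = 0.0683 with the block).

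Of the 8 fibroblast or feeder cell markers, 3 were called higher with the block (10.7% of all genes). DESeq2, without the block, called the same 3, beside 4.13% of all genes. Its adjusted p was 0.0147 for *Col1a1*, 0.0267 for *Col3a1* and 0.00121 for *Thy1*. EdgeR in the 4 libraries without wild-type 3 and S138A C called 4 higher (15.3% of all genes), these 3 and *Vim* (adjusted p = 0.00245). The summed level of the 8 was 715 to 793 TMM CPM in wild-type and 835 to 974 in mutant libraries, most of it from *Fn1*, which had 520 to 571 and 530 to 780 TMM CPM and was not called. None of the 8 was at 0. *Thy1* had 11 to 11.3 TMM CPM in wild-type, 25.3 and 26.1 in S138A A and B and 16.5 in S138A C. *Col1a1* had 20.5 to 36.1 TMM CPM in wild-type and 37.9 to 75.0 in mutant libraries. The third marker called was *Col3a1*, at 0.454 to 0.633 and 0.917 to 2.31 TMM CPM. The other 5 did not pass with the block, and of these *Vim*, *Fn1* and *Postn* had log2 fold changes of 0.19, 0.17 and 0.45 and *Col1a2* and *Twist1* of -0.22 and -0.09. The part of the 3 called markers in the differences above was not tested.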

How the data were processed

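Per the labels, base calling used CASAVA 1.8.4 and alignment TopHat2 2.0.11, on mm9 (NCBIM37). The table the authors deposited holds unnormalised whole-number counts by gene, made with featureCounts; its version and settings, strand among them, are not given in the sources used here. The 3 mutant columns could be matched to their genotype but not to a replicate, and are called A, B and C in the order of their final digit. Counts were analysed in R 4.3.3 with edgeR 4.0.16 (filterByExpr, minimum count 10 and minimum total 15, TMM factors, quasi-likelihood test, Benjamini-Hochberg adjustment over all genes tested, threshold 0.05). The SE was taken as the absolute log2 fold change over the root of the F statistic. Alternatives used DESeq2 1.42.0 and limma 3.58.1. Fits were tested on simulated data, with fold changes larger than those of the members and no difference shared by wild-type 3 and S138A C. The simulation therefore does not show how the fits treat small changes in the presence of that difference. Deviations from the group means correlated at 0.53, 0.493 and 0.753 for libraries sharing digits 1, 2 and 3. Deviations cancel out within a genotype, so a difference shared by wild-type 3 and S138A C alone gives positive values for digits 1 and 2. Libraries of different digits were not correlated, so these values do not show a pairing for digits 1 and 2. The digits come from column names, not from a stated design. Positions, lengths and coding sequences are from GENCODE on GRCm38, another build than that of the counts.

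Members and gene lists were chosen with earlier results of these data known. Values by library are given for the CBL family, for members called with edgeR, DESeq2 or the block, and for the 2 members of smallest p in each role; up to 3 genes of each other list are named by p.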

Additional observations from a re-analysis of the deposited data

How the results depend on the processing

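EdgeR without the block called 0 of all 16023 genes, so its count of 0 members says nothing particular about the members. The count of members called was also 0 with RLE or upper-quartile factors, without the low-count filter and with the filter of 1 CPM in 3 libraries. It was 0 in limma-voom, without any single library (0 to 0) and in DESeq2, which called 4.13% of all genes. For the other alternatives the share of all genes is not given here. At the stricter thresholds the count could only be 0. It was 8 with the replicate block, which pairs libraries by the digit of their column names (19.8% of all genes). In the 4 libraries without wild-type 3 and S138A C it was also 8 (29.6% of all genes). The median log2 fold change of the members was -0.039 in those 4 libraries, and from -0.044 (without S138A C) to 0.018 when single libraries were left out. The number of members whose genotypes do not overlap was 11 to 22 with a library left out (11 without wild-type 2, beside 26.1% of all genes tested; 16 without wild-type 3, beside 47.2%; 22 without S138A C, beside 42.6%) and 29 in 4 libraries (72.5%, beside 68.4%). It was 12 with RLE and 14 with upper-quartile factors (beside 22.2% and 22.4%). Fewer libraries make separation easier. The count models and the block give no such count of their own. Other pathway genes called were 3 in DESeq2 (4.13% of all genes), 26 with the block (19.8% of all genes) and 34 in 4 libraries (29.6% of all genes). The median wild-type level per kilobase was 13.9 with the longest transcript. Of the 23 genes with values by library, 20 kept their sign in every alternative run, but in 13 the log2 fold change moved by over 1.5 times or turned when 1 library was left out: *Epn2* ran from -0.47 to -0.08, *Chmp2a* from -0.60 to -0.13, *Cblc* from 0.01 to 0.57 and *Cbl* from 0.05 to 0.24. Of the 8 genes called with the block, the other 6 did not move by that much. *Cblb* ran from -0.21 to 0.02 (above 0 without wild-type 3 or S138A A), *Stam* from -0.06 to 0.09 (below 0 in 4 of the 6 cases), and *Stambp* from -0.14 (without S138A C) to 0.25. *Stam* was also -0.003 without the filter and -0.001 in DESeq2, and *Stambp* -0.19 in 4 libraries. The cause of these changes was not tested. *Vps25*, with 8 to 24 counts a library, had the fewest counts of the members.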
